A study of Mus musculus with 82 samples.

Results

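Heat shock chaperones are described here through 10 genes, taken by symbol from 3 tables of estimated counts that share 21823 protein-coding genes. They are Hspa1a, Hspa1b, Hspa8, Hsp90aa1, Hsp90ab1, Hsph1, Hspd1, Hspe1, Dnaja1 and Dnajb1. All 10 were found in every table and all 10 passed the filter on low counts in every fit. RNA was read from ovalbumin-specific mouse T cells that had been transferred into recipient mice: the CD8 line is called OT-I and the CD4 line OT-II. Both lines carry a transgenic receptor, so every library, controls included, comes from such cells. Recipients received saline, plain ovalbumin (OVA) or pGal-OVA (ovalbumin joined to a synthetic sugar polymer, here pGal) at 5 µg per the series' design text. The treatment protocol gives the pGal amount as the molar equivalent of the OVA instead. Spleen and lymph nodes were taken 4 days later and the cells sorted.

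In the prophylactic experiment the antigen came 1 day after transfer, each library pooled 3 mice and cells were sorted into Trizol. There were 5 libraries each of OT-I cells after saline, OVA and pGal, and 5 saline, 4 OVA and 5 pGal libraries of OT-II cells, in 2 labelled batches. In the therapeutic experiment the mice had first been immunized with OVA in complete Freund's adjuvant, were treated a month later, and each library came from 1 mouse. Those cells were sorted into buffer, spun down and snap frozen. The age and sex of the mice are not given in the sources used here.

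Heat shock chaperones bind unfolded or partly folded proteins and either hold them or help them fold with the use of ATP. The HSP70 proteins (Hspa1a, Hspa1b, Hspa8) take up clients delivered by J-domain proteins (Dnaja1, Dnajb1), and Hsph1 exchanges their nucleotide. HSP90 proteins (Hsp90aa1, Hsp90ab1) finish the folding of kinases and receptors. Hspd1 and Hspe1 form the folding chamber of the mitochondrial matrix. Hspa8 and Hsp90ab1 are made in most cells at all times, whereas Hspa1a, Hspa1b and Dnajb1 are strongly induced by heat and other proteotoxic stress through the transcription factor HSF1. The same genes, with immediate early genes such as Fos and Jun, are known to respond to the handling of tissue and cells before lysis.

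Heat shock elements, to which HSF1 binds, are inverted repeats of the unit GAA, and windows around the annotated starts were therefore read for GAANNTTC or TTCNNGAA (2 units), and for 3 such units in alternating orientation with the same 2-base gaps. Both strands were covered, since each 2-unit pattern is its own reverse complement, and each 3-unit match contains both of them. RefSeq windows on GRCm38.p6 matched 7 of the 10 genes by symbol; Hspa8, Hsp90aa1 and Hsp90ab1 had no entry. A 2-unit pattern lay in the window of 6 of these 7 genes (Hspa1a, Hspa1b, Hspe1, Hspd1, Hsph1 and Dnaja1) at 1 or more starts. Counted by window, it lay in 7 of their 12 windows and in 15.1% of all 32851 windows. A 3-unit pattern lay in 4 of the 12 windows (those of Hspe1, Hsph1 and 1 of the 2 of Hspd1) and in 0.603% of all windows. Some of the 12 windows overlap. No such letters were in the Dnajb1 windows. The sequences below are shown because Hspa1a and Hspa1b are hard to tell apart and because the others hold the patterns that the genes share. Each is written 5′ to 3′ on the gene's own strand, and capitals mark the GAA and TTC units of each match.
Hspa1a: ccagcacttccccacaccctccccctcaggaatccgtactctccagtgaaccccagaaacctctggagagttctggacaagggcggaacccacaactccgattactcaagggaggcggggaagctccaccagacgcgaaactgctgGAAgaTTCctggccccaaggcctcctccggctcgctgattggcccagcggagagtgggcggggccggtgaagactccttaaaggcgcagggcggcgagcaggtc
Hspa1b: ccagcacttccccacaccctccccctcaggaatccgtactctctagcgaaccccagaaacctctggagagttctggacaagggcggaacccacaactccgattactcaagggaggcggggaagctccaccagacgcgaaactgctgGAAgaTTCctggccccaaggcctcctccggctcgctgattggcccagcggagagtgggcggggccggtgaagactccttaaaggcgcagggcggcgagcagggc
Hspe1: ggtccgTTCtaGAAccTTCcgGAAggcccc
Hsph1 before the start: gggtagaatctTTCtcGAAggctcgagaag
Hsph1 after the start: tgctgcagaTTCtgGAAagTTCtcctcagt
Dnaja1: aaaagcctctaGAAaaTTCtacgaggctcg
The Hspa1a stretch is chr17:34972157-34972406 and the Hspa1b stretch chr17:34959239-34959488, both on the minus strand and both ending at the last base before the start, with the element 104 bases before it. They differ by the substitutions C44T, T47C and T249G, counted from the 5′ end, with the Hspa1a base first. The Hspe1 stretch is chr1:55088053-55088082 on the plus strand. RefSeq gives Hspd1 2 starts. The window of one shares 285 bases with the Hspe1 window, on the opposite strand, and so holds the same element. The window at the annotated Hspd1 start shares 4 bases with it and holds no match. The Hspe1 stretch itself lies inside the annotated Hspd1 gene. The Hsph1 stretches are chr5:149636351-149636380 and chr5:149636280-149636309 on the minus strand, and the Dnaja1 stretch is chr4:40722333-40722362 on the plus strand. The Dnaja1 stretch lies inside the annotated gene, before a RefSeq start further in. Likewise, the Hsph1 element shown before the start lies inside the annotated Hsph1 gene and comes before RefSeq starts further in. A match describes letters only, since no binding was measured.

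In the GENCODE M21 annotation of GRCm38, Hspa1a (chr17:34969190-34972156) and Hspa1b (chr17:34956436-34959238) are neighbouring genes of 1 exon on the minus strand. Hspd1 (chr1:55077835-55088243, minus strand) and Hspe1 (chr1:55088132-55091307, plus strand) lie head to head and overlap at their starts. The other genes are Hspa8 (chr9:40800984-40810087), Hsp90aa1 (chr12:110690605-110702728), Hsp90ab1 (chr17:45567775-45573271), Hsph1 (chr5:149614287-149636376), Dnaja1 (chr4:40722150-40737149) and Dnajb1 (chr8:83608193-83612653). Near-identical copies limit some of the counts. Of all 31-base words in Hspa1a transcripts, 63.8% also occur in Hspa1b, and 67.6% of the Hspa1b words occur in Hspa1a. Their split between the 2 genes is therefore uncertain, and their sum is given beside them. Hspa8 shares 77.2% of its words with transcripts of other genes (most with Gm15459), Hsp90aa1 62.9%, Hspd1 55.8% (most with Hspd1-ps3), Hspe1 48.1%, Dnaja1 20.7% and Hsp90ab1 16.6%. Dnajb1 shares 0.441% of its words and Hsph1 shares 0 of 3772.

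Total counts ran from 21.2 to 68.2 M (mega) in the prophylactic libraries and from 22.6 to 62.5 M in the therapeutic libraries used. The labelled cell type was checked by Cd4 against Cd8a, and 11 of the 53 therapeutic libraries, 6 labelled OT-I and 5 labelled OT-II, carried the other lineage's co-receptor transcript. Of these, 10 form 5 same-numbered pairs of an OT-I and an OT-II library after the same treatment. Whether labels were exchanged within these pairs was not tested. Results below leave these 11 out, which leaves 71 libraries: for therapeutic OT-I cells 6 saline, 8 OVA and 8 pGal libraries, and for OT-II cells 6 saline, 6 OVA and 8 pGal libraries. With all libraries as labelled, the counts of the 10 genes called in the therapeutic treatment contrasts were the same. A further 6 prophylactic libraries had over 100 CPM of Cd4 in OT-I cells or of Cd79a, a B cell gene, and 5 therapeutic OT-II libraries in use had over 100 CPM of Cd79a. The 13 mitochondrially encoded genes took 0.461 to 2.10% of counts in prophylactic libraries and 0.273 to 7.31% in therapeutic ones. Nothing in the labels ties same-numbered libraries to the same mice. In bulk RNA, fewer cells of a type and less RNA per cell cannot be told apart. P-values measure the spread between pools of mice in the prophylactic experiment and between mice in the therapeutic one.

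The 10 genes together took 0.596 to 1.39% of all counts in prophylactic libraries (median 0.927%) and 0.731 to 4.05% in therapeutic ones (median 1.53%). Levels below are CPM, the count of a gene relative to its library total after TMM scaling over all 82 libraries. Levels between genes were compared only per kb of transcript. In saline libraries of the prophylactic OT-I cells, Hspa8, the constitutive HSP70, stood highest at 1687 ± 129 CPM per kb (SD, n = 5). Hsp90ab1, the constitutive HSP90, followed at 637 ± 57.8, Hspa1b at 472 ± 161 and Hspa1a at 210.5 ± 64.5. The ranges of Hsp90ab1 and Hspa1b overlapped, as did those of Hspa1b and Hspa1a. Hspe1, Dnaja1, Hsp90aa1, Dnajb1 and Hspd1 lay between 122.5 and 148 CPM per kb on average with overlapping ranges, and Hsph1 was lowest at 73.3 ± 9.23. In saline libraries of the therapeutic OT-II cells Hspa1b stood at 3278 ± 1331 and Hspa1a at 2216 ± 976, both on average above Hspa8 at 1887 ± 337 (SD, n = 6), with overlapping ranges. Hsph1 was lowest again, at 71.0 ± 26.1 CPM per kb.

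**Figure D1:**
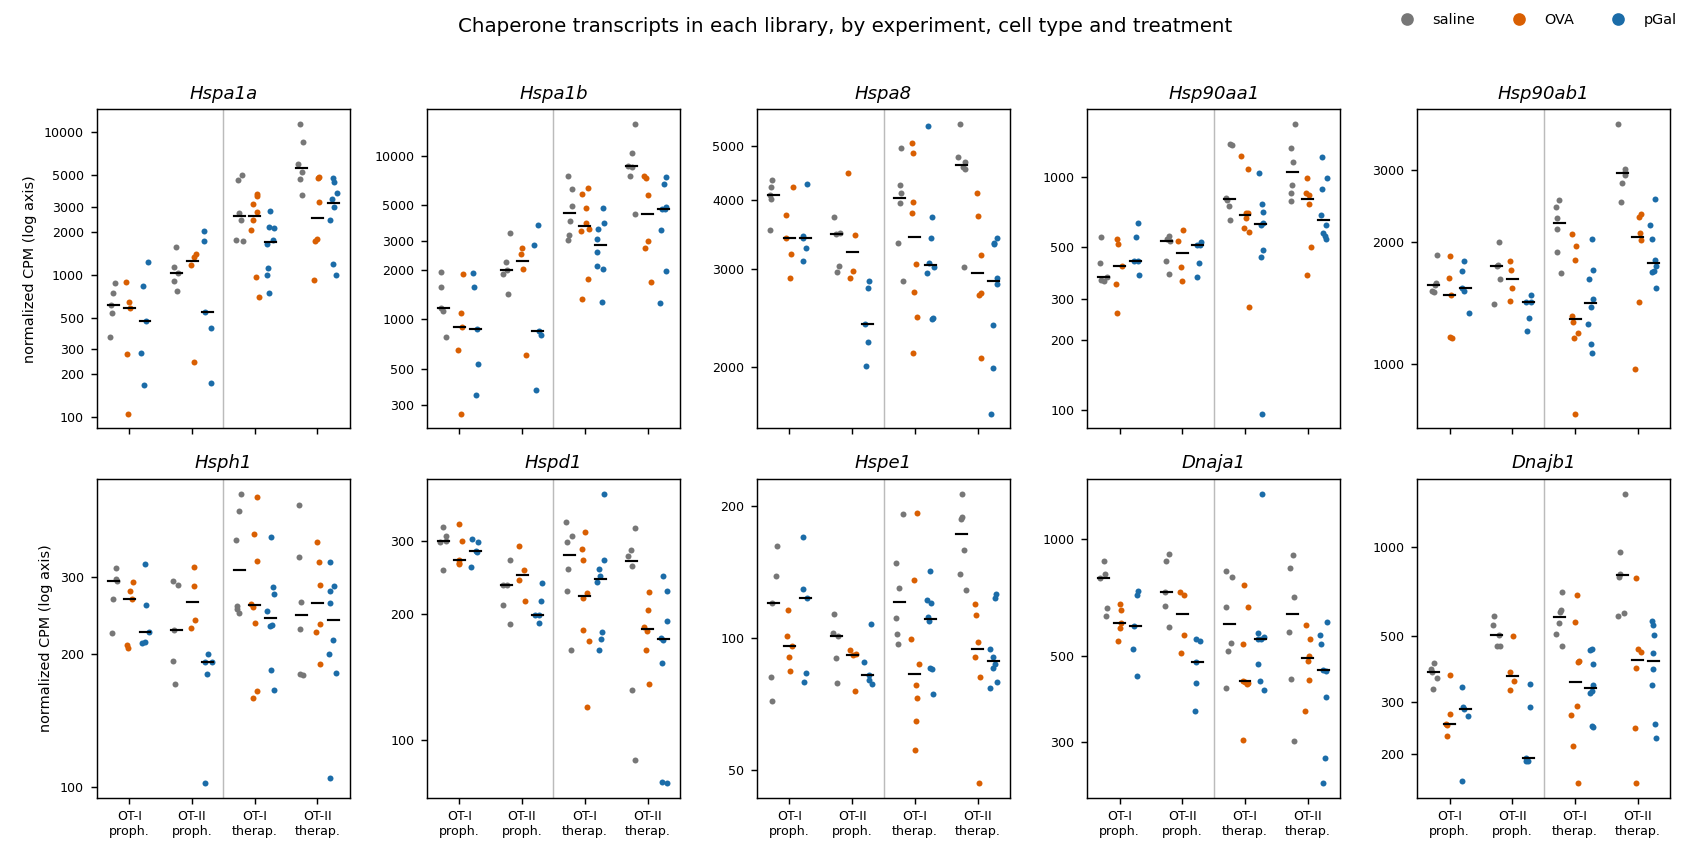
Normalized CPM (log axis) of each of the 10 genes in each of the 71 libraries used, 1 panel per gene, with libraries grouped by cell type, experiment and treatment; the short black lines are medians. Hspa1a and Hspa1b stand higher in every therapeutic saline library than in the prophylactic saline libraries of the same cell type, while Hsph1, Hspd1 and Dnaja1 overlap between the experiments.

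The J-domain genes Dnaja1 and Dnajb1 were lower after pGal than after saline in prophylactic OT-II cells. Dnaja1, which delivers clients to HSP70, had 593, 671, 729, 874 and 913 CPM in the saline libraries. After pGal it had 362, 427, 483, 546 and 553 CPM, and after OVA 509.6, 565, 714 and 731 CPM. All 5 pGal libraries lay below all 5 saline libraries, and the OVA libraries overlapped with both. Dnaja1 fell by 0.68 on the log2 scale (SE 0.09, 95% interval -0.88 to -0.48) between saline and pGal (edgeR, adjusted p = 0.000491). Dnajb1, a heat-inducible J-domain protein, had 464, 465, 505, 548 and 587 CPM after saline and 190.2, 191, 194, 289 and 346 CPM after pGal. Again no pGal library reached any saline library, and the 4 OVA libraries, at 329, 355, 378 and 500.0 CPM, overlapped with both. It fell by 1.09 on the log2 scale (SE 0.19, 95% interval -1.49 to -0.69; edgeR, adjusted p = 0.00224), a level 2.13-fold lower.

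These were the 2 of 10 chaperone genes called in that contrast, where 11.7% of the 14128 genes tested were called at an adjusted p under 0.05. All 10 had a negative log2 fold change, with a median of -0.34 against 0.04 over all genes tested. Within batch 1 the log2 changes were -0.69 for Dnaja1 and -1.07 for Dnajb1, and within batch 2 they were -0.69 and -1.14. Batch 2 alone, with 2 pGal and 2 saline libraries, called neither (edgeR, adjusted p = 0.252 and 0.193). With the mitochondrial share as a covariate the log2 change of Dnajb1 was -0.89 and that of Dnaja1 -0.68 (edgeR, adjusted p = 0.0196 and 0.00420). The mitochondrial share ran from 0.705 to 1.82% after saline and from 1.10 to 2.10% after pGal. Every saline library except saline 2 of batch 2 (1.82%) lay at or below 0.824%, under the lowest pGal library. The share thus nearly followed the treatment, which limits what the covariate fit can separate.

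The constitutive HSP70 gene Hspa8 had 2967, 3034, 3475, 3481 and 3727 CPM after saline in these OT-II cells. After pGal it had 2006, 2219.6, 2392, 2776 and 2857 CPM, all below the lowest saline and OVA libraries. Its log2 change was -0.44 (SE 0.15; edgeR, adjusted p = 0.0675), which did not pass. Without the 3 OT-II libraries rich in other transcripts it passed, at a log2 change of -0.48 (edgeR, adjusted p = 0.0144), and the count of the 10 genes called was then 4. The percentage of all genes called in that fit is not given here. Summed B cell markers (6 of 7 found, none at 0 throughout) were 33.8 to 3249 CPM in the pGal libraries and 49.0 to 668 CPM in the saline ones, and summed myeloid markers (7 genes) 62.5 to 2901 and 76.2 to 542 CPM. Their part in these results was not tested beyond leaving those libraries out.

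Between pGal and OVA in prophylactic OT-II cells, 1 of the 10 genes was called beside 1.87% of all genes tested. In the Dnaja1 level, 2 of the 5 pGal libraries, both of batch 1, lay above the lowest OVA library, which was of batch 2. Within each batch all pGal libraries lay below all OVA libraries. Dnaja1 fell by 0.46 on the log2 scale (SE 0.10; edgeR, adjusted p = 0.0315). With the replicate number as a block it did not pass (log2 change -0.44; edgeR, adjusted p = 0.15). This call was lost in 11 of 23 alternatives, including each batch alone, the mitochondrial share as covariate and 6 of 14 fits without a single library. Without library 3 of batch 1 after pGal, Dnajb1 was called as well. Hsph1, the HSP110 nucleotide exchange factor, had 102, 179.7, 192, 192 and 200.4 CPM after pGal and 229, 239, 286 and 316 CPM after OVA. Those groups did not overlap, yet its log2 change of -0.63 (SE 0.22) did not pass (edgeR, adjusted p = 0.177). Between OVA and saline 0 of the 10 were called by edgeR and 0 by DESeq2, beside 0.163% of all genes called by edgeR. At an unadjusted p under 0.05 there was 1 of the 10, beside 1034 of the 14128 genes tested.

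Some genes for folding partners of these chaperones passed in the same contrast of pGal and saline in prophylactic OT-II cells, to be read against the 11.7% of all genes called. Of 33 tested genes for heat shock factors and cochaperones, 8 fell and 1 rose. Stip1, which hands clients from HSP70 to HSP90, fell by 0.64 (SE 0.10; edgeR, adjusted p = 0.00143) and Fkbp4, an HSP90 cochaperone, fell by 0.64 (SE 0.11; edgeR, adjusted p = 0.00207). Hsf1, the heat shock factor itself, fell by 0.50 (SE 0.09; edgeR, adjusted p = 0.00435). Of 8 genes of the cytosolic chaperonin TRiC, 3 fell, with Cct6a at -0.60 (SE 0.10) and Cct3 at -0.35 (SE 0.07). Of 11 mitochondrial chaperones and proteases 1 fell, Hspa9, the HSP70 of the mitochondrial matrix, at -0.60 (SE 0.12; edgeR, adjusted p = 0.00537). Of 18 endoplasmic reticulum chaperones and stress genes Pdia3 rose, at 0.42 (SE 0.09), and Atf4 fell, at -0.56 (SE 0.10). Of 14 immediate early genes 4 fell, among them Junb at -1.32 (SE 0.30) and Ier2 at -1.10 (SE 0.18), all in log2.

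In prophylactic OT-I cells none of the 10 genes passed in any of the 3 contrasts by edgeR. Dnaja1 had 633, 662, 793, 812 and 878 CPM after saline, 545, 589.8, 607, 654 and 679 CPM after OVA, and 445, 522, 595, 718 and 733 CPM after pGal. The groups overlapped, and its log2 change was -0.32 (SE 0.09) for pGal and -0.26 (SE 0.09) for OVA against the same saline libraries (edgeR, adjusted p = 0.0523 and 0.0911). Dnajb1 had 333, 363, 380.1, 389 and 408 CPM after saline, and 163, 270.5, 284, 289 and 338 CPM after pGal. The highest pGal library, of batch 1, lay above the lowest saline one, of batch 2. Within each batch all pGal libraries lay below all saline ones. The log2 change of Dnajb1 was -0.48 (SE 0.15; edgeR, adjusted p = 0.0951). In each of the contrasts of pGal and of OVA with saline, 3 of the 10 had an unadjusted p under 0.05. Of all 13802 genes tested, 2617 and 2749 did. DESeq2 called Dnaja1 and Dnajb1 in both contrasts. Over all genes edgeR called 3.35% for pGal and 5.39% for OVA, and DESeq2 8.35% and 9.82%. Between pGal and OVA edgeR called 0% of genes, 0 of the 10 had an unadjusted p under 0.05, and DESeq2 called 0.

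**Figure D2:**
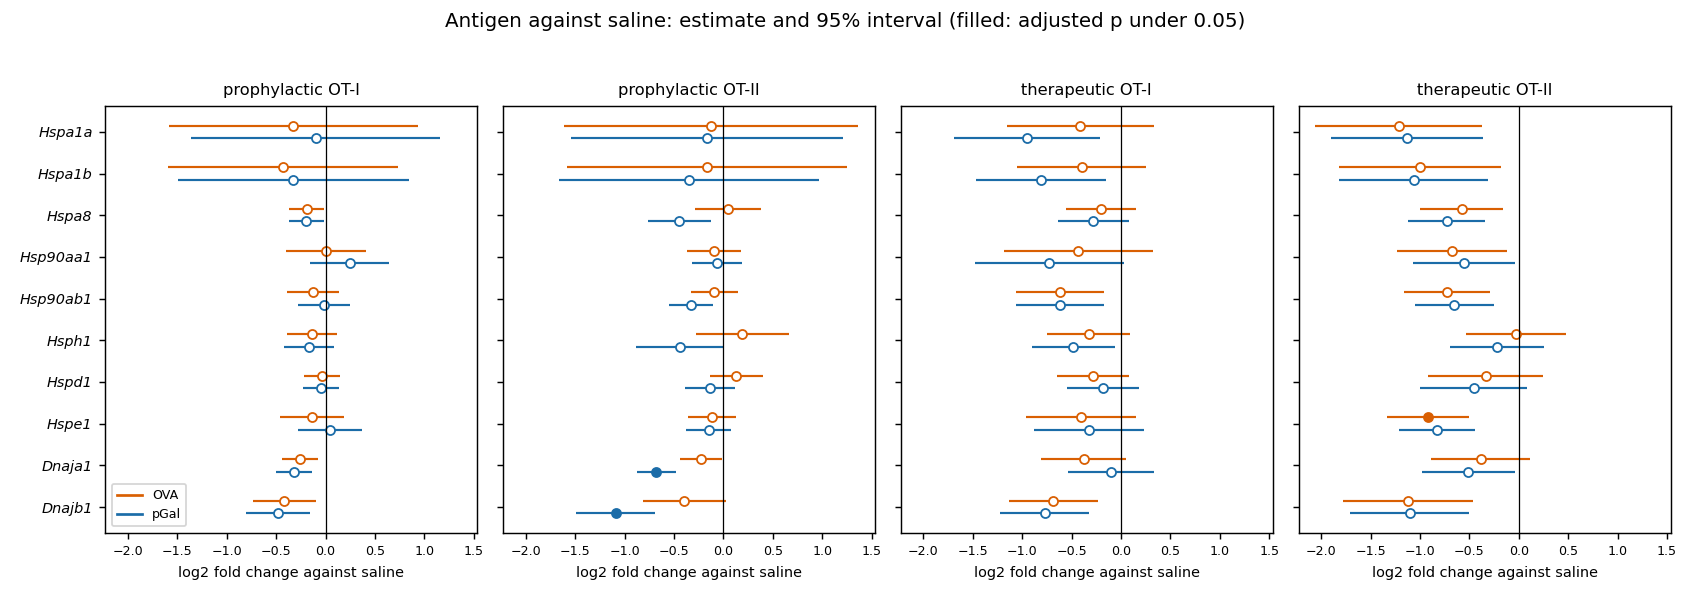
Log2 fold change of each gene after OVA (orange) and pGal (blue) against the same saline libraries, in 4 panels by experiment and cell type, with 95% intervals; filled points passed an adjusted p of 0.05. Filled points are Dnaja1 and Dnajb1 after pGal in prophylactic OT-II cells and Hspe1 after OVA in therapeutic OT-II cells.

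Hspa1a and Hspa1b, the heat-inducible HSP70 genes, varied widely within a treatment. Their summed level in prophylactic OT-II cells was 2190.3, 2807, 3118, 3285 and 4925 CPM after saline. It was 849.5, 3209, 3827 and 4131 CPM in the OVA libraries and 546, 1231, 1395, 4570.4 and 5782 CPM in the pGal libraries. The highest pGal library had 10.6 times the level of the lowest, against 2.25 times among saline libraries, and 3 of the 5 pGal libraries lay below all saline ones while 1 lay above them all. That highest library, pGal 3 of batch 1, was among those rich in other transcripts, with 1050 CPM of Cd79a. In prophylactic OT-I cells the sum was 1145, 1663, 1793, 2313 and 2818 CPM after saline, 371, 929.8, 1478, 1742 and 2783 CPM with OVA, and 515, 814, 1350.0, 2409 and 3152 CPM with pGal, so all groups overlapped. The 95% interval of the Hspa1a log2 change between pGal and saline in OT-II cells was -1.54 to 1.21. A difference of that size could not be detected with this spread. Hspa1a took 28.5 to 49.5% of the counts of the pair over the 71 libraries.

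In therapeutic OT-II cells all 10 genes had lower estimates after either form of antigen than in the saline libraries that both contrasts share. Over all genes tested, 55.3% had a lower estimate after OVA and 46% after pGal. For Hsph1 the mean was 270 CPM after both OVA and saline. Hspe1, the co-chaperonin of the mitochondrial folding chamber, had 128 to 213 CPM after saline (median 173, n = 6). After OVA it had 46.6 to 119 CPM (median 94.3, n = 6) and after pGal 77.0 to 126 CPM (median 88.7, n = 8). Neither antigen group overlapped with saline. Hspe1 fell by 0.92 on the log2 scale (SE 0.20, 95% interval -1.34 to -0.50) between saline and OVA (edgeR, adjusted p = 0.0233). Its log2 change after pGal was -0.82 (SE 0.19; edgeR, adjusted p = 0.0920). The OVA call was lost in 4 of 20 fits without a single library, those without OVA library 3, 4 or 5 or saline library 7. It was also lost with the replicate number as a block (log2 change -0.93; edgeR, adjusted p = 0.0873) and without the 5 libraries above 100 CPM of Cd79a (-0.90; adjusted p = 0.105). It was the 1 of the 10 genes called beside 1.54% of all 14244 genes tested, and the median log2 change of the 10 was -0.70 against -0.07 over all genes.

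Dnajb1 had 587 to 1519 CPM (median 805) in the therapeutic OT-II saline libraries, 159.7 to 786 CPM after OVA (median 416) and 228 to 566 CPM after pGal (median 413). No pGal library reached a saline library. Its log2 change was -1.12 (SE 0.32) for OVA and -1.11 (SE 0.29) for pGal, and neither passed (edgeR, adjusted p = 0.0747 and 0.165). Hsp90ab1 had 2506 to 3896 CPM after saline (median 2948) and 976 to 2338 CPM after OVA (median 2059), with no overlap, at a log2 change of -0.73 (SE 0.21; edgeR, adjusted p = 0.0806). The summed Hspa1a and Hspa1b level was 8017 to 27078 CPM after saline (median 15044), 2600.1 to 12424 CPM after OVA (median 6910.3) and 2252 to 12236 CPM after pGal (median 7979.8), which overlapped. After pGal 0 of the 10 were called by edgeR, where 0.00702% of all genes were called. At an unadjusted p under 0.05 there were 8 of the 10, beside 1280 of the 14244 genes tested. DESeq2 called 3, Hspa8, Hspe1 and Dnajb1, beside 1.19% of all genes.

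Markers of other cells differed between these OT-II groups too. Summed erythroid and platelet markers (6 genes) were 13.8 to 582 CPM after saline, with Pf4 and Ppbp at 0 in all 6 libraries, and 311 to 858 CPM after OVA. Summed myeloid markers were 48.1 to 238 and 37.1 to 73.9 CPM, and Cd4 itself 339 to 1047 and 940.2 to 1330.2 CPM. Their part in these results was not tested. With the mitochondrial share as covariate, 3 of the 10 genes were called between OVA and saline, Hspe1, Hspa8 and Hsp90ab1. The percentage of all genes called in that fit is not given here. Of 31 tested heat shock factors and cochaperones 1 fell after OVA, Dnajb2, a J-domain cochaperone, at -0.89 (SE 0.22; edgeR, adjusted p = 0.0425). None of the 14 immediate early genes passed, and their median log2 change was -0.91 for OVA and -0.86 for pGal.

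In therapeutic OT-I cells the 10 genes again all had lower estimates after antigen, with a median log2 change of -0.55 for pGal and -0.40 for OVA, and none passed by edgeR. Over all genes tested, 49% had a lower estimate after pGal and 44.7% after OVA. Dnajb1 had 464 to 709 CPM after saline (median 582, n = 6), 248 to 453 CPM after pGal (median 334, n = 8) and 159.9 to 688 CPM after OVA (median 351, n = 8). The pGal libraries all lay below the saline ones, at a log2 change of -0.77 (SE 0.22; edgeR, adjusted p = 0.488). Hsp90ab1 had 1679 to 2527 CPM after saline, 757 to 2092 CPM with OVA and 1068 to 2030.0 CPM with pGal, which overlapped. Over all genes 0% were called for pGal and 0.686% for OVA by edgeR. At an unadjusted p under 0.05 there were 5 of the 10 for pGal and 2 for OVA, beside 952 and 1862 of the 14581 genes tested. DESeq2 called 0 of the 10 in both. Between pGal and OVA, 0 of the 10 passed in either therapeutic cell type by edgeR or DESeq2, 0 had an unadjusted p under 0.05, and edgeR called 0% of all genes in both.

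Differences between OT-I and OT-II cells were tested on the saline libraries and on the antigen effects. Hspd1, the mitochondrial chaperonin, had 255, 298, 300.2, 308 and 323 CPM in prophylactic OT-I saline libraries and 189, 209.9, 234, 235 and 269.8 CPM in OT-II ones. The groups overlapped by 1 library each. Hspd1 was lower in OT-II cells, at a log2 difference of -0.38 (SE 0.10, 95% interval -0.57 to -0.18; edgeR, adjusted p = 0.00611), and this held in all 34 alternatives. It was the 1 of the 10 called, beside 18.1% of the 14845 genes tested. Dnajb1 was higher in all 5 OT-II than in all 5 OT-I saline libraries, at a log2 difference of 0.47 (SE 0.17) that did not pass (edgeR, adjusted p = 0.0647). With the replicate number as a block, Dnajb1 passed at 0.46, Hspa1a at 0.81 and Hspa1b at 0.75 (edgeR, adjusted p = 0.0263, 0.0132 and 0.00707), beside 17.3% of all genes. All 8 TRiC genes were lower in OT-II cells, led by Tcp1 at -0.71 (SE 0.08), as were Hspa9 at -0.55 (SE 0.09) and Trap1, the mitochondrial HSP90, at -0.60 (SE 0.08). Of 14 immediate early genes, 8 were higher in OT-II cells and none lower.

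In therapeutic saline libraries 0 of the 10 genes were called between cell types by edgeR and 1 by DESeq2, beside 9% and 12.2% of all genes. At an unadjusted p under 0.05 there were 4 of the 10, beside 3220 of the 15747 genes tested. The Hspa1a log2 difference was 1.09 (SE 0.42; edgeR, adjusted p = 0.0993, and 0.0425 with the replicate block) and that of Hspd1 -0.22 (SE 0.26). The antigen effects were then compared between OT-II and OT-I cells by interaction terms, in which edgeR called 0 of the 10 in all 6 tests. In the prophylactic experiment edgeR called 0.505% of all genes for pGal against OVA, 1.17% for pGal against saline and 0.0337% for OVA against saline. At an unadjusted p under 0.05 there were 5, 2 and 0 of the 10 genes, beside 1409, 1781 and 1083 of the 14845 genes tested. DESeq2 called 1, 0 and 0 of the 10, the 1 being Dnaja1. In the therapeutic experiment the shares were 0%, 0% and 0.121%, with 0 of the 10 at an unadjusted p under 0.05 and 0 by DESeq2 in each. The difference between the cell types in the pGal effect on Dnajb1 against saline was -0.61 (SE 0.25) in the prophylactic experiment, so that the larger change in OT-II cells was not shown to differ from that in OT-I cells (edgeR, adjusted p = 0.306).

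The largest differences of Hspa1a and Hspa1b lay between the experiments. Among saline libraries, Hspa1a had 366 to 867 CPM in prophylactic OT-I cells (n = 5) and 1717 to 5013 CPM in therapeutic ones (n = 6). In OT-II cells it had 762 to 1562 and 3626 to 11433 CPM. No prophylactic library reached a therapeutic one. Hspa1a was higher by 2.32 on the log2 scale in OT-I cells (SE 0.36, 95% interval 1.57 to 3.07; edgeR, adjusted p = 0.00016), which is 4.99-fold. In OT-II cells it was higher by 2.61 (SE 0.37, 95% interval 1.85 to 3.37; edgeR, adjusted p = 5.6e-05), which is 6.11-fold. Hspa1b was higher by 1.92 (SE 0.33) and 2.09 (SE 0.33). Against batch 1 alone the Hspa1a differences were 2.27 and 2.56, and against batch 2 alone 2.41 and 2.67.

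The HSP90 genes followed. Hsp90aa1, the stress-inducible form, had 357 to 551 CPM in prophylactic and 657 to 1392 CPM in therapeutic OT-I saline libraries, and 383 to 559 and 787 to 1694 CPM in OT-II ones, without overlap. Its log2 differences were 1.23 (SE 0.24) and 1.17 (SE 0.24; edgeR, adjusted p = 0.00122 and 0.00188). Hsp90ab1 was higher by 0.44 (SE 0.14) in OT-I and 0.81 (SE 0.15) in OT-II cells. Dnajb1 was higher by 0.63 (SE 0.20) and 0.76 (SE 0.20), and Hspe1 by 0.83 (SE 0.18) in OT-II cells (edgeR, adjusted p = 0.00327), while its OT-I estimate of 0.33 (SE 0.18) did not pass. In OT-I cells the Hsp90ab1 call was lost in 10 of 19 alternatives and the Dnajb1 call in 8, including each prophylactic batch alone and, for both, without the prophylactic libraries rich in other transcripts. In OT-II cells the Hspe1 call was lost against batch 1 alone and batch 2 alone (edgeR, adjusted p = 0.0549 and 0.0511), that of Hsp90aa1 against batch 2 alone (adjusted p = 0.102) and that of Dnajb1 in 3 alternatives.

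Thus 5 of the 10 genes were higher in therapeutic OT-I saline libraries, beside 16.7% of 15778 genes called in either direction, and 6 in OT-II ones, beside 17.6%. Hspa8, Hsph1, Hspd1 and Dnaja1 passed in neither cell type by edgeR. For Hspa8 in OT-II cells, 5 of the 6 therapeutic libraries lay above all prophylactic ones. DESeq2 called it at a log2 difference of 0.43 (DESeq2, adjusted p = 0.0114), as 1 of 7 of the 10, beside 24.8% of all genes. It also passed with the mitochondrial share as covariate (0.47; edgeR, adjusted p = 0.0112) and with all libraries as labelled (0.48; edgeR, adjusted p = 0.0492). The log2 estimates of Dnaja1 were -0.23 in both cell types (SE 0.23), with 95% intervals that reach from -0.70 to 0.24. Of the immediate early genes 11 of 14 were higher in OT-I and 7 of 14 in OT-II cells, none lower, with Fos at 1.91 (SE 0.29) and 1.86 (SE 0.29). Bag3, an HSP70 cochaperone under HSF1, was higher by 1.29 (SE 0.30) and 2.19 (SE 0.32), and the small heat shock protein gene Hspb1 by 2.83 (SE 0.87) and 5.25 (SE 1.01). TRiC genes went the other way in OT-I cells, where 7 of 8 were lower, with Cct5 at -0.83 (SE 0.21), and 0 of 8 passed in OT-II cells. Markers of other cells moved in the same contrast. In OT-I cells 1 of 6 B cell genes (Cd22, 2.96), 1 of 3 NK cell genes (Klrb1c, 2.13) and 1 of 7 myeloid genes (Itgam, 2.03) passed as higher (log2 differences). In OT-II cells Cd22 was higher (2.02), while Itgam (-2.14) and the platelet genes Pf4 and Ppbp were lower, the last 2 at 0 in all 6 therapeutic libraries. Summed B cell markers were 60.8 to 1359 CPM in prophylactic and 221 to 564 CPM in therapeutic OT-I saline libraries, and 49.0 to 668 and 167 to 621 CPM in OT-II ones. Their part in these results was not tested. Immunization, the time between transfer and collection, the handling of the sorted cells, pooling and the table of origin all change between the experiments and cannot be told apart.

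**Figure D3:**
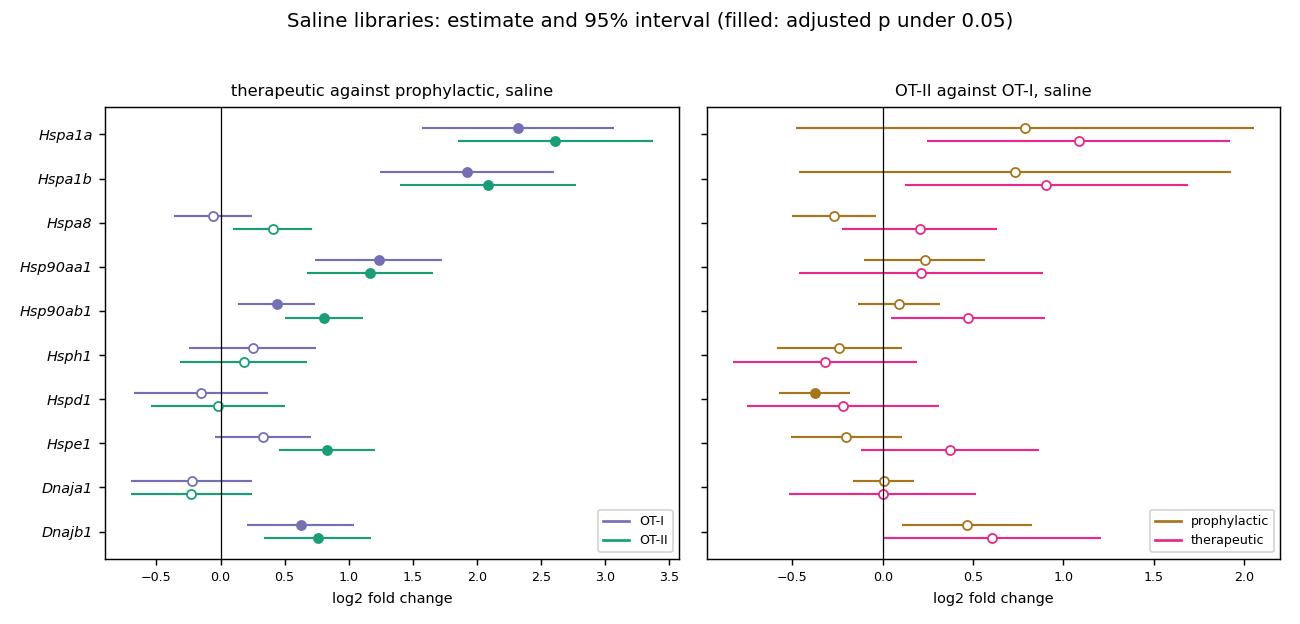
Log2 fold change of each gene between saline libraries with 95% intervals: therapeutic against prophylactic on the left for both cell types, OT-II against OT-I on the right for both experiments; filled points passed an adjusted p of 0.05. Hspa1a and Hspa1b lie farthest from 0 on the left, and Hspd1 in prophylactic libraries is the only filled point on the right.

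The share of counts from mitochondrially encoded genes was then related to the 10 genes within each cell type and experiment, with treatment (and batch) in the fit. In therapeutic OT-I cells Hspe1, Hsp90aa1 and Hsp90ab1 were higher in libraries with a higher share. The slope was 1.17 log2 per percentage point for Hspe1 (SE 0.25; edgeR, adjusted p = 0.00180), 1.72 for Hsp90aa1 (SE 0.42; adjusted p = 0.00527) and 0.72 for Hsp90ab1 (SE 0.24; adjusted p = 0.0383). These were 3 of the 10, beside 17.3% of all genes called. Of all genes called, 1749 rose and 767 fell with the share. The median slope was 0.30 log2 per percentage point over all genes tested and 0.07 over the 10. The library with the lowest share (pGal 1, 0.273%) had 96.4 CPM of Hsp90aa1, where the other pGal libraries had 453 to 1039, and the one with the highest (OVA 2, 1.75%) had 1229 CPM. Without those 2 libraries Hsp90aa1 kept its call at a slope of 2.47 (edgeR, adjusted p = 0.0259), while Hspe1 and Hsp90ab1 did not pass. Dnaja1, Hspd1 and Hspa8 then passed with slopes of -1.51, -1.35 and -1.21 (edgeR, adjusted p = 0.0108, 0.0149 and 0.0228).

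In therapeutic OT-II cells 6 of the 10 genes had a slope that passed, beside 35.8% of all genes. Hspd1 fell by 0.23 log2 per percentage point (SE 0.06; edgeR, adjusted p = 0.00896), and Dnaja1 by 0.18 (SE 0.06; edgeR, adjusted p = 0.0159). Hspa1b, Hspa8 and Hsph1 fell as well, and Hsp90aa1 rose by 0.19 (SE 0.06; edgeR, adjusted p = 0.0163). One library (pGal 9) had a share of 7.31% and the next (saline 1) 2.69%. Hspd1 was 78.5 and 89.1 CPM in them. It was 227 CPM in the library with the lowest share (pGal 8, 0.615%). The library with the second lowest (saline 6, 0.683%) had 322 CPM, the highest of the set. It was also 79.2 CPM in pGal 10, at a share of 1.49%. Without pGal 9 and saline 1 the slopes of Hspd1 and Dnaja1 were both -0.97 per percentage point (edgeR, adjusted p = 0.000687 and 0.000792), and the other 4 did not pass. With all libraries as labelled, 2 of the 10 passed in OT-II cells and none in OT-I cells, and the slopes of Hsph1 and Dnaja1 in OT-II cells turned positive without passing. The percentages of all genes called in these alternative fits are not given here.

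**Figure D4:**
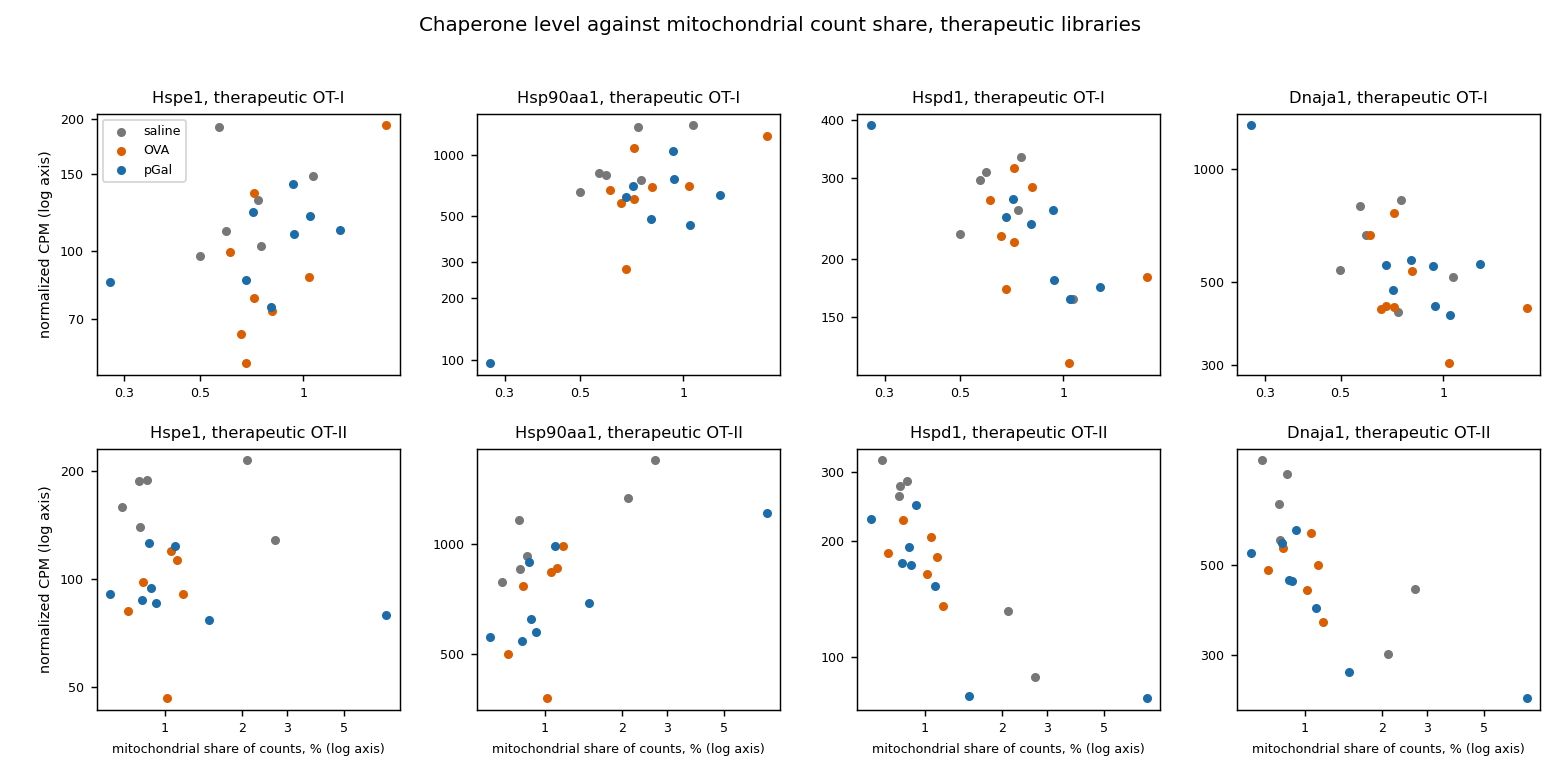
CPM of Hspe1, Hsp90aa1, Hspd1 and Dnaja1 (log axis) against the mitochondrial share of counts (log axis) in therapeutic OT-I (top) and OT-II (bottom) libraries, 1 point per library coloured by treatment. Hspd1 and Dnaja1 decline toward higher shares in OT-II libraries, and the points at 7.31% and 0.273% stand apart.

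In prophylactic cells 0 of the 10 genes had a slope that passed by edgeR, beside 0.84% of all genes in OT-I and 0.0991% in OT-II cells. At an unadjusted p under 0.05 there were 2 in each, beside 1386 of 13802 genes tested in OT-I and 2198 of 14128 in OT-II cells. DESeq2 called 2 in OT-I cells, Hspe1 and Hsp90aa1, and 0 in OT-II cells. The Hspe1 slope in OT-I cells was 0.47 log2 per percentage point (SE 0.12; edgeR, adjusted p = 0.114). Within batches it was 0.64 in batch 1 and -0.04 in batch 2, and neither passed. In both batches of OT-II cells the Hspa1a estimate was negative, at -5.60 in batch 1 and -0.63 in batch 2, without passing.

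Hspe1 and Hspd1 lie head to head and their products form a complex. Likeness was measured as Pearson's r of log2 CPM after removal of treatment and batch means, over 15, 14, 22 and 20 libraries of the 4 sets, among 7937 genes with at least 10 CPM on average in each set and no 0 in any library. The median r of Hspe1 with Hspd1 was 0.20, at rank 2987. The 5 genes most like Hspd1 were Caprin1 (median r 0.82), Eif1a (0.80), Hspa9 (0.80), Fyttd1 (0.79) and Papola (0.79). The likeness was not even over the sets: Caprin1 had r = -0.23 in prophylactic OT-I and Eif1a -0.05 in prophylactic OT-II cells. Among the other chaperones described here Dnaja1 stood nearest, at 0.76, followed by Hspa8 at 0.69 and Hsph1 at 0.63. These libraries share depth and composition differences, so the values describe them and carry no p.

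For the summed Hspa1a and Hspa1b level, the 5 most similar genes were Jun (median r 0.90), Fos (0.84), Dusp1 (0.81), Dnajb1 (0.78) and Rgs2 (0.77). Jun and Fos encode subunits of the AP-1 transcription factor and Dusp1 a phosphatase of MAP kinases. The r with Dnajb1 was 0.76 in prophylactic OT-I, 0.95 in prophylactic OT-II, 0.53 in therapeutic OT-I and 0.80 in therapeutic OT-II cells. Hspe1 (0.48) and Hsp90ab1 (0.48) came next among the chaperones, at ranks 80 and 88. The median r was 0.09 for Hspd1 and -0.04 for Dnaja1, with 0.36 and 0.43 in therapeutic OT-II cells.

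**Figure D5:**
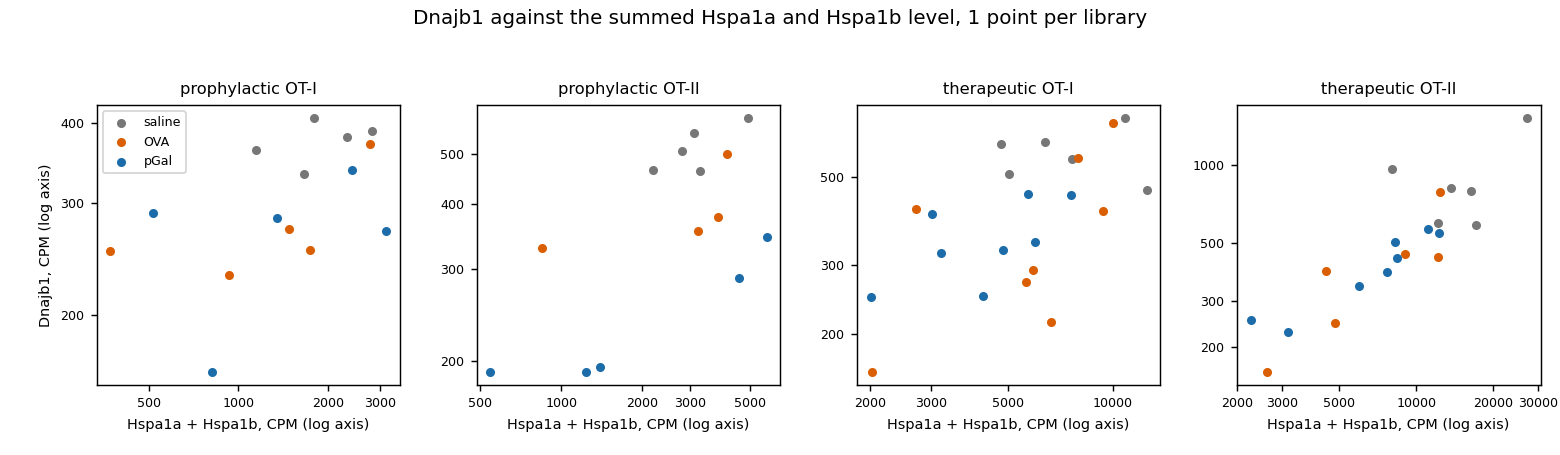
Dnajb1 CPM against summed Hspa1a and Hspa1b CPM (both log axes) in 4 panels by experiment and cell type, 1 point per library coloured by treatment. In prophylactic OT-II cells 3 of the 5 pGal points lie below all saline points in summed Hspa1a and Hspa1b level. The remaining pGal points, within or above the saline range of that level, have less Dnajb1 than every saline point. The highest of them (pGal 3 of batch 1) is a library rich in Cd79a.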

How the data were processed

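Sorted OT-I and OT-II cells were sequenced after SmartSeq v4 amplification, and the authors deposited estimated counts for protein-coding genes in 3 tables, 2 for the prophylactic batches and 1 for the therapeutic experiment. Per the submitters' processing notes these were made with bcl2fastq and kallisto 0.46.1 on GRCm38; how transcripts were summed to genes, and the strand setting, are not given in the sources used here. Estimated counts are whole numbers as deposited. Libraries hold 21.2 to 68.2 M (mega) counts. Reads carry no molecular identifiers, so the spread between libraries was used in place of counting intervals. Of 21900 genes in the prophylactic tables, 77 that the therapeutic table lacks were left out.

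Low counts were removed with filterByExpr, libraries scaled by TMM, and the rest fitted with the robust quasi-likelihood test of edgeR 4.0.16 in R 4.3.3, with a batch term in prophylactic fits and Benjamini-Hochberg adjustment over all genes tested at 0.05. The SE is the log2 change divided by the square root of F. Treatment contrasts were fitted per experiment and cell type, cell type differences and interactions per experiment, and the 2 experiments on saline libraries alone. Slopes on the mitochondrial share carried the treatment groups; they were fitted per 10 percentage points and are given per point. DESeq2 1.42.0, other filters, single libraries left out, batches alone, removal of mitochondrial genes, the share as covariate and a replicate block were alternatives. The code was tested on simulated data. Rows that name no gene do not occur in the tables.

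The 10 genes and the lists of related genes were chosen with earlier results of these data known. All 10 are accounted for; from each related list at most 4 called genes per comparison, those with the smallest p, could be named, and the 5 genes most like the Hspa1a and Hspa1b sum or Hspd1. Promoter windows and their build are RefSeq's.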

Additional observations from a re-analysis of the deposited data

Results flagged for a closer look

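In 7 of 120 groups of 4 to 8 libraries a single library stood far from the others in the level of 1 of the 10 genes (in CPM), by the gap to its neighbour relative to the range of the group. Chance alone flags about 1 in 20 groups. Therapeutic OT-I pGal 1, the library with the lowest mitochondrial share, had a Dnaja1 level of 1305 CPM where the others had 408 to 571, and an Hsp90aa1 level of 96.4 CPM where the others had 453 to 1039. Therapeutic OT-II saline 1, with a mitochondrial share of 2.69%, had 3028 CPM of Hspa8, below the others at 4548 to 5489.

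The remaining 4 were prophylactic libraries. OT-II OVA 3 of batch 1 had 244 CPM of Hspa1a where the others had 1168 to 1387. OT-II OVA 2 of batch 2, 1 of the libraries rich in Cd79a, had 75.8 CPM of Hspe1 where the others had 91.2 to 93.9. OT-II pGal 2 of batch 2, with the highest mitochondrial share of its set (2.10%), had 102 CPM of Hsph1 where the others had 179.7 to 200.4. OT-I saline 2 of batch 1 had 1859.9 CPM of Hsp90ab1 where the others had 1506 to 1579.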

How the results depend on the processing

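Counts of the 10 genes called are compared here with those in the report. With DESeq2, 2 instead of 0 genes were called in prophylactic OT-I cells for pGal and for OVA against saline, and 2 instead of 0 for their mitochondrial slope. DESeq2 called 3 instead of 1 for pGal against OVA and 4 instead of 2 for pGal against saline in prophylactic OT-II cells, and 3 instead of 0 for pGal and 5 instead of 1 for OVA against saline in therapeutic OT-II cells. It called 2 instead of 1 between prophylactic cell types, 1 instead of 0 between therapeutic ones and 1 instead of 0 for the prophylactic difference in pGal against OVA. The DESeq2 shares over all genes were, in that order, 8.35, 9.82, 1.95, 6.47, 17.6, 1.19, 5.01, 21, 12.2 and 1.7%. Without mitochondrial genes 1 was called in prophylactic OT-I and 4 in OT-II cells for pGal against saline. With the mitochondrial share as covariate the prophylactic OT-II count for pGal against OVA was 0, and those for OVA against saline were 1 in therapeutic OT-I and 3 in therapeutic OT-II cells. For pGal against OVA in prophylactic OT-II cells batch 1 alone and batch 2 alone each gave 0, and batch 2 alone gave 0 for pGal against saline. Against batch 1 or batch 2 alone 3 genes were higher in therapeutic OT-I saline libraries, and against batch 2 alone 3 in OT-II ones. Without prophylactic libraries rich in other transcripts the count was 4 for pGal against saline in prophylactic OT-II cells and, in a fit chosen after seeing the data, 3 in OT-I cells between experiments. Without the 5 therapeutic OT-II libraries above 100 CPM of Cd79a, also chosen after seeing the data, it was 0 for OVA against saline in therapeutic OT-II cells. For the slopes, batch 1 alone gave 1 and leaving out the 2 extreme libraries 2 in prophylactic OT-I cells, and the latter gave 2 in therapeutic OT-II cells. As labelled, the counts were 0 in OT-I and 2 in OT-II therapeutic cells, and there the slopes of Hsph1 and Dnaja1 reversed, to 0.10 and 0.26 log2 per 10 percentage points. Apart from those for DESeq2, the percentages of all genes called under these alternatives are not given here. Such counts therefore have no background beside them. The cause of these changes was not tested.

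With the replicate number as a block, 0 genes were called for pGal against OVA in prophylactic OT-II cells and 0 for OVA against saline in therapeutic OT-II cells, 4 between prophylactic cell types and 1 between therapeutic ones; other counts did not move. Same-numbered libraries of the 2 cell types correlated above 0.1 in 10 of 14 prophylactic and 17 of 19 therapeutic pairs (median r 0.20 and 0.28), and other-numbered ones in 5 of 22 and 38 of 129 (median r -0.12 and -0.05). Of the 14 and 19 libraries of each cell type with such a partner, 10 and 10 prophylactic and 11 and 9 therapeutic ones correlated best with their own number. The counts for the 2 cell types come from the same pairs of libraries. Deviations were taken from the mean of each treatment and batch group, so in groups of 2 libraries they mirror each other. There, as throughout prophylactic batch 2, an other-numbered r is fixed by the same-numbered one. The prophylactic values here and below therefore cannot decide on pairing. The therapeutic groups hold 6 or 8 libraries, where this tie is weaker, and their values are a hint of pairing between the cell types. Within a cell type the block joins same-numbered libraries of different treatments. Their median r was -0.19 in prophylactic and 0.04 in therapeutic OT-II cells, against 0.18 and 0.05 for other-numbered ones. In OT-I cells it was 0.01 and 0.03, against -0.03 and -0.001. Whether the calls lost within a cell type reflect pairing was not tested. Since not every pair passed 0.1 and no label states pairing, the block stayed an alternative.

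Leaving out 1 library at a time gave 0 to 1 genes in prophylactic OT-I cells for pGal and 0 to 1 for OVA against saline, 0 to 2 in prophylactic OT-II cells for pGal against OVA (2 without batch 1 pGal 3) and 2 to 4 for pGal against saline (4 without batch 1 pGal 3 or batch 2 OVA 2). It gave 0 to 2 for OVA against saline in therapeutic OT-II cells (2 without OVA 7 or pGal 9), 1 to 2 between prophylactic cell types, and 3 to 5 in OT-I and 5 to 6 in OT-II cells between experiments. No such count moved in the other comparisons tested this way.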

Other observations

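The 11 therapeutic libraries whose Cd4 and Cd8a levels go against their label entered the comparisons above only where all libraries were taken as labelled. All but 1 of them form 5 same-numbered pairs across the cell types. Those labelled OT-I (6 libraries) had 743 to 23083 CPM of Hspa1a and Hspa1b together, with a median of 9677, and 3078 to 5393 CPM of Hspa8. Those labelled OT-II (5 libraries) had 473 to 11582 CPM of the pair, with a median of 6003, and 3690 to 5525 CPM of Hspa8. In this set pGal library 5 of both cell types had the highest mitochondrial shares of the whole series, 7.93% for the one labelled OT-I and 9.08% for the one labelled OT-II.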
